A study of Mus musculus with 4 samples.

Results

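The alternative and terminal complement components measured here were 8 liver genes, Cfb, Cfi, Hc, C6, C8a, C8b, C8g and C9, out of 18193 genes that had a probe set with 1 gene symbol. They were taken from a list of 9 genes by symbol, each gene through its brightest probe set with 1 symbol. C3, the remaining gene of the list, had no such probe set in the platform annotation used and was not analysed here. Each of the 8 genes had 1 such probe set, so no other probe set could serve as a check. The samples were livers of C57BL/6 (B6) fetuses on day 17 of gestation, from matings of Sox17+/- males with females of the same strain. The 2 genotypes were Sox17+/-, with 1 intact copy of the gene for the transcription factor Sox17, and wildtype, each with 2 biological replicates and 1 Affymetrix array per replicate. The liver was separated from the biliary system before RNA extraction, per the labels, so the gallbladder and outer bile ducts, where Sox17 has known roles, were not the tissue measured. The labels used here do not state how the Sox17 allele was made, the sex of the fetuses, or how many fetuses went into a replicate.

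Complement is a cascade of plasma proteins, most of them secreted by hepatocytes, that marks microbes and damaged cells and can lyse them. The alternative pathway runs on C3, which it cleaves with an enzyme built from C3 and factor B, while factor I degrades the active C3 fragment. Cleavage of C5 starts the terminal pathway, in which C5, C6, C7, C8 and many copies of C9 join into the membrane attack complex, a pore in the target membrane. C8 is made of 3 chains, each from a gene of its own. Fetal liver begins to make these proteins before birth, and several complement genes are also known to respond to inflammatory cytokines.

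The values were MAS5 signals, a brightness per probe set on a linear scale, and a signal of 1 gene's probe set cannot be set against that of another gene. The arrays had been scaled to a common mean, and their median signals lay between 84.7 and 103. Sox17 itself had signals of 139 and 124 on the Sox17+/- arrays against 244 and 264 on the wildtype arrays, on the brighter of its probe sets. Whether that probe set lies in the altered part of the gene is not stated, so it checks the genotype labels only if it does. Hepatocyte markers were bright on all 4 arrays, with Alb at 42354 and 22768 in Sox17+/- liver against 40785 and 23777 in wildtype liver. Wildtype array 1 stood apart in the signal at the 3' end of Actb, at 11910 against 24712 to 35014 on the other 3 arrays. The ratio of 3' to 5' Actb signal, a sign of RNA quality, was also highest there, at 1.95, with 1.20 to 1.43 elsewhere. The same ratio for Gapdh was close on all 4 arrays, at 0.853 on wildtype array 1 and 0.807 to 0.843 elsewhere. The part of RNA quality in the results was not tested. The array names in the labels give arrays of the same replicate number a common code, and the labels do not state what it stands for. Differences are therefore also given within each array number, and the main ones without wildtype array 1.

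All 8 complement genes had lower mean signals in Sox17+/- liver than in wildtype liver, and the differences were unequal. The median log2 difference of the 8 genes was -0.52, or 0.699-fold, against -0.02 over the 11685 genes tested. C9 had the largest difference, at 0.310-fold, followed by C6 at 0.537-fold and Hc at 0.666-fold, while C8g had the smallest, at 0.886-fold. For 4 of the 8 genes, Hc, C6, C8a and C9, both Sox17+/- arrays lay below both wildtype arrays, as they did for 16.9% of the 22519 probe sets tested. The log2 difference was below 0 in 8 of 8 genes, against 52.6% of probe sets, and was below 0 within both array numbers in 8 of 8, against 30% of probe sets. The list was chosen with earlier results of these data known, so these counts are a description and get no p. The 8 genes were read on the same 4 arrays and are not replicates of each other.

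None of the 8 genes passed the test. In the limma fit across all 22519 probe sets, on log2(signal + 16) and with Benjamini-Hochberg adjustment, 0 of 8 were lower or higher at an adjusted p under 0.05, and over all probe sets 0% were called in either direction. The adjusted p was 0.9999 for each of the 8 genes. Without adjustment 2 of the 8 genes, C6 and C9, were lower at the same threshold in limma and 0 were higher, against 2.31% and 1.79% of probe sets. That count depended on single arrays. With 1 array left out, the log2 difference of C6 ran from -1.17 to -0.62 and that of C9 from -2.43 to -0.95. Both were nearest to 0 without wildtype array 1 and furthest from 0 without wildtype array 2. With 2 arrays per genotype, the smallest two-sided p of an exact permutation test is 0.333. Whether lower signals reflect fewer cells of a type or less RNA per cell cannot be told apart in whole tissue.

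**Figure D1:**
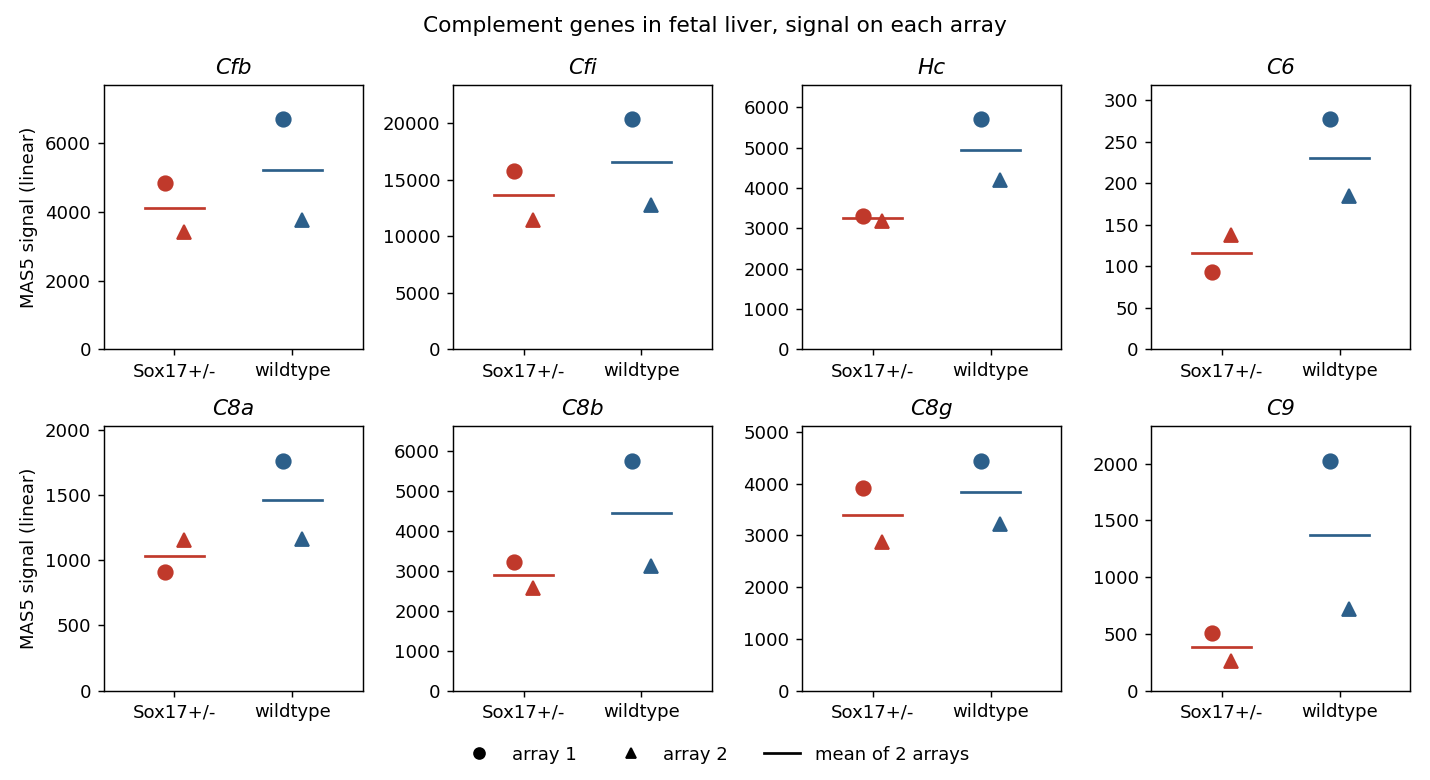
MAS5 signal (linear scale, each gene on its own axis from 0) of the 8 complement genes on each array, Sox17+/- in red on the left and wildtype in blue on the right, with circles for arrays numbered 1, triangles for arrays numbered 2 and a line at the mean of the 2 arrays. Wildtype array 1 is the highest point in all 8 panels, and both red points lie below both blue points for Hc, C6, C8a and C9.

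Cfb encodes factor B, the serine protease precursor of the alternative pathway convertase. Its signals were 4839 and 3415 on the Sox17+/- arrays, against 6696 and 3761 on the wildtype arrays (probe set 1417314_at). The genotypes overlapped, since the higher Sox17+/- array lay above the lower wildtype array. The means were 4127 ± 1007 in Sox17+/- liver and 5229 ± 2075 in wildtype liver (SD, n = 2 each), a log2 difference of -0.30 (SE 0.36, 95% interval -1.21 to 0.60). The difference was smaller than the gap of 0.83 between the 2 wildtype arrays.

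Cfi encodes factor I, the protease that inactivates C3b and C4b. It gave 15786 and 11442 in Sox17+/- liver against 20310 and 12789 in wildtype liver (probe set 1418724_at). These groups also overlapped, with the arrays numbered 1 above those numbered 2 in each genotype. The log2 difference was -0.26 (SE 0.32), with a 95% interval from -1.07 to 0.54. The intervals of both alternative pathway proteases, factor B and factor I, thus spanned 0.

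Hc encodes C5, the protein whose cleavage releases the attractant C5a and starts the membrane attack complex. Its signals were 3318 and 3180 in Sox17+/- liver, against 5701 and 4188 in wildtype liver (probe set 1419407_at). The 2 Sox17+/- arrays were nearly equal, and both lay below both wildtype arrays. The means were 3249 ± 97.7 in Sox17+/- liver and 4945 ± 1070 in wildtype liver (SD, n = 2 each), a log2 difference of -0.59 (SE 0.24, 95% interval -1.19 to 0.02). Hc was 1 of the 3 genes, with C6 and C9, whose difference exceeded the gap between arrays of either genotype, as it did on the lower side for 10.7% of probe sets.

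C6 encodes the component that binds C5b first and holds it for the rest of the complex. Its probe set was dim, with 93.5 and 138 in Sox17+/- liver against 277 and 184 in wildtype liver (probe set 1449308_at). A signal of 84.9 corresponds to the mean below which probe sets were not tested, so the lower Sox17+/- value lay near that limit. The genotypes did not overlap, and the log2 difference was -0.90 (SE 0.30, 95% interval -1.66 to -0.14). Within the array numbers the difference was -1.42 on the arrays numbered 1 and -0.38 on those numbered 2. C7, which binds next, had no probe set with 1 symbol in the annotation used and was not analysed here.

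C8a, C8b and C8g encode the alpha, beta and gamma chains of C8. The alpha and beta chains belong to the same protein family as C6, C7 and C9, whereas the gamma chain is a lipocalin, a small carrier protein bound to the alpha chain. C8a had 907 and 1154 in Sox17+/- liver against 1762 and 1159 in wildtype liver (probe set 1428012_at). Its Sox17+/- arrays lay below both wildtype arrays, but Sox17+/- array 2 and wildtype array 2 were almost equal, with a log2 difference of -0.01 between them against -0.95 on the arrays numbered 1.

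C8b had 3223 and 2563 in Sox17+/- liver against 5752 and 3110 in wildtype liver (probe set 1427472_a_at). The groups overlapped by a small margin, and the log2 difference was -0.56 (SE 0.35), or -0.11 without wildtype array 1. C8g had 3914 and 2871 in Sox17+/- liver against 4446 and 3225 in wildtype liver (probe set 1451625_a_at). Its groups overlapped, and its log2 difference of -0.17 (SE 0.28, 95% interval -0.88 to 0.53) was nearly the same on both array numbers, at -0.18 and -0.17. For the 3 chains of C8 the log2 differences were thus -0.48, -0.56 and -0.17, and whether they differ from each other was not tested.

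C9 encodes the component that polymerises into the wall of the pore. Its signals were 511 and 257 in Sox17+/- liver, against 2026 and 716 in wildtype liver (probe set 1422815_at). Both Sox17+/- arrays lay below both wildtype arrays. The means were 384 ± 180 in Sox17+/- liver and 1371 ± 927 in wildtype liver (SD, n = 2 each), a log2 difference of -1.69 (SE 0.58, 95% interval -3.15 to -0.23). The arrays of 1 genotype were also far apart, by 0.95 between the Sox17+/- arrays and 1.48 between the wildtype arrays on the log2 scale. C9 was the only one of the 8 genes below 0.5-fold on both array numbers, at 0.258-fold on the arrays numbered 1 and 0.373-fold on those numbered 2.

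**Figure D2:**
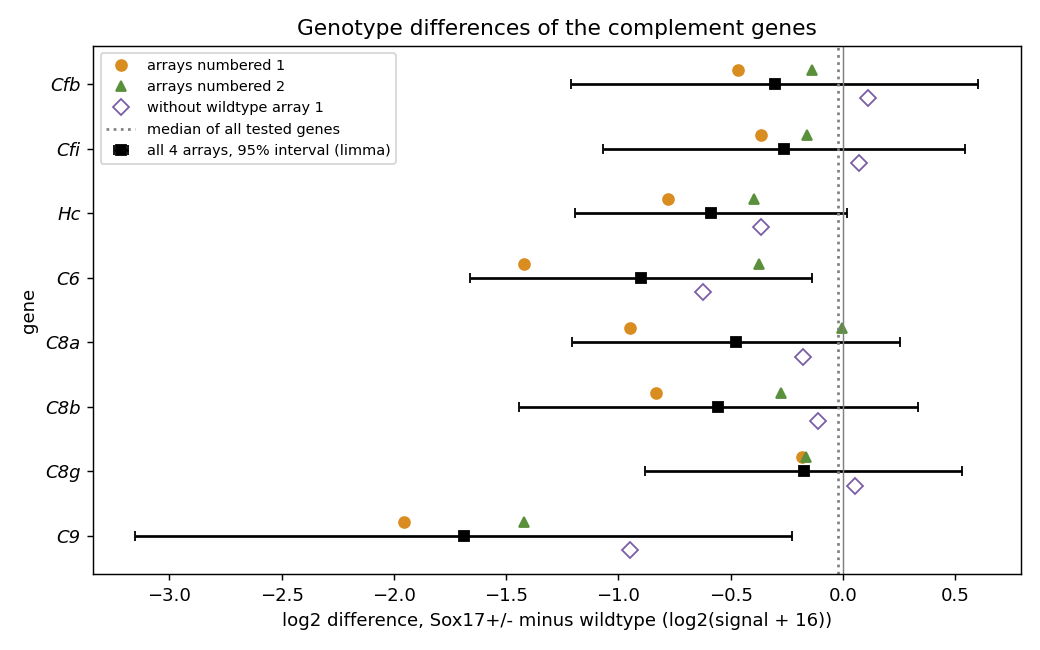
Log2 difference between Sox17+/- and wildtype liver (x axis, on log2(signal + 16)) for each gene (y axis), with squares and bars for all 4 arrays and the 95% interval from limma, circles and triangles for the arrays numbered 1 and 2, and open diamonds without wildtype array 1. C9 lies furthest to the left at -1.69, and without wildtype array 1 the values of Cfb, Cfi and C8g lie slightly above 0.

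The size of the differences rested on wildtype array 1. It was the highest of the 4 arrays for 8 of 8 genes and lay above wildtype array 2 by a median of 0.63 on the log2 scale, whereas over all tested probe sets the median was -0.05 and 45.4% were higher on wildtype array 1. Sox17+/- array 1 was above Sox17+/- array 2 for 6 of 8 genes, by a median of 0.39, against 45.6% of probe sets. Within the arrays numbered 1 the median difference between Sox17+/- and wildtype liver was -0.81, and within those numbered 2 it was -0.22. Without wildtype array 1 the median over the 8 genes was -0.15, and Cfb, Cfi and C8g had values of 0.11, 0.07 and 0.06. That comparison sets 2 Sox17+/- arrays against a single wildtype array, which carries the number 2. Both Sox17+/- arrays still lay below wildtype array 2 for the same 4 genes, with log2 differences of -0.95 for C9, -0.62 for C6, -0.37 for Hc and -0.18 for C8a, a pattern found in 37.7% of probe sets when wildtype array 1 was left out. Without Sox17+/- array 1 or without wildtype array 2, 8 of 8 genes were below without overlap, against 31.3% and 33.2% of probe sets.

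Markers of hepatocytes, the main source of plasma complement, also differed by array number. Of 20 hepatocyte genes listed, 16 were tested, and 0 of the 16 lay below or above without overlap. Their median log2 difference was -0.11, but 0.21 without wildtype array 1. Their summed signal was 280416 to 452728 on the Sox17+/- arrays against 299019 to 480701 on the wildtype arrays. Measured relative to the median of these 16 genes on the same array, the complement genes had a median log2 difference of -0.37. On that scale C9 differed by -1.54, C6 by -0.75, Hc by -0.44, C8b by -0.41 and C8a by -0.33, while Cfb, Cfi and C8g differed by -0.16, -0.11 and -0.03. There C6, C8b, C9 and Cfb were below without overlap, while Hc, C8a, C8g and Cfi overlapped, Hc by a small margin. Because the hepatocyte median itself differed by array number, at 0.28 and -0.39 on Sox17+/- arrays 1 and 2 against 0.38 and -0.31 on wildtype arrays 1 and 2 relative to each gene's mean, these values are given as a description with no count over all probe sets. Macrophages make some complement proteins too. Of 14 tested macrophage and monocyte genes 5 were lower and 1 higher without overlap, against 16.9% and 14.1% of probe sets, with summed signals of 41466 to 57430 on the Sox17+/- arrays against 45201 to 63798 on the wildtype arrays. The part of either cell type in the differences was not tested.

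**Figure D3:**
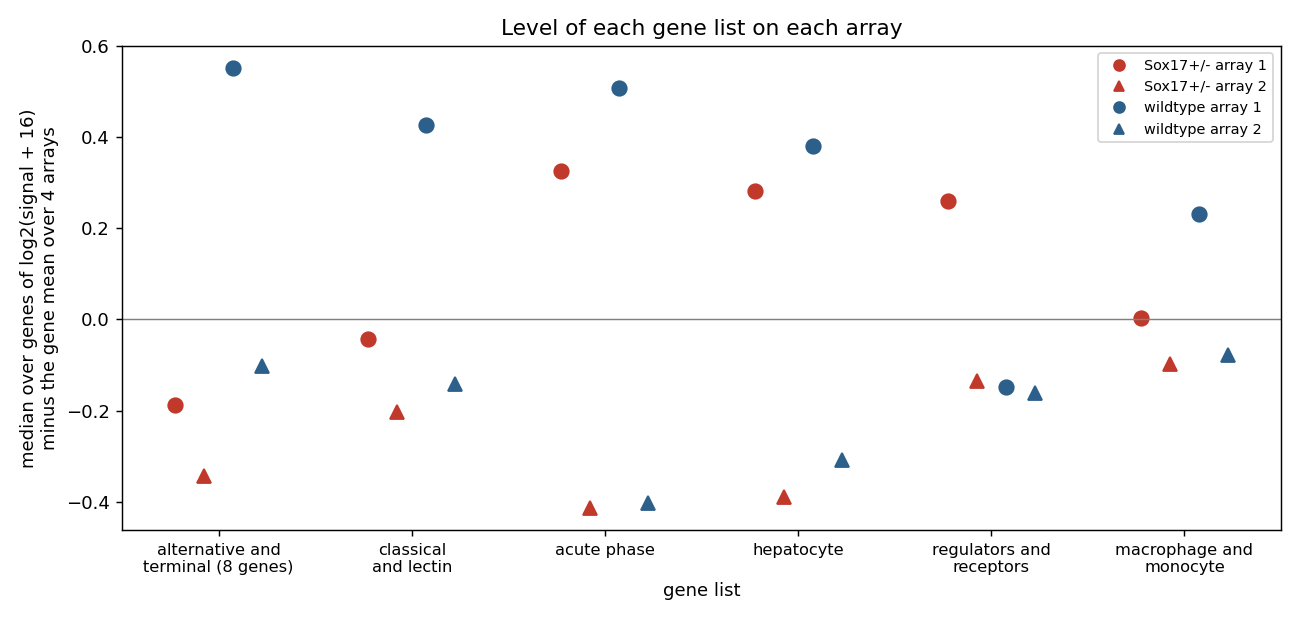
Level of 6 gene lists (x axis) on each array, as the median over the tested genes of log2(signal + 16) minus each gene's mean over the 4 arrays (y axis), Sox17+/- in red and wildtype in blue, circles for arrays numbered 1 and triangles for those numbered 2. For the 8 complement genes wildtype array 1 stands at 0.55 and the other 3 arrays lie between -0.34 and -0.10, whereas the hepatocyte and acute phase lists are high on both arrays numbered 1.

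The upstream sequences of the members are shown for C9, which had the largest difference, and for C8b, which encodes a C8 chain of the same protein family and had a smaller one. RefSeq start sites (GRCm38.p6) were available for 7 of the 9 listed genes, C3 among them, with 8 start sites in all. For Hc, C6, C8a and both start sites of C8g, the annotated gene reaches further upstream than the start site used. For Hc the start site is at 35061412 and the gene's outer end at 35068506. Each sequence holds the 250 bases before the start site, 5' to 3' on the strand of the gene, and capitals mark a match to a motif named below. The C9 sequence lies at chr15:6445096-6445345 on the + strand and the C8b sequence at chr4:104766067-104766316 on the + strand.
C9: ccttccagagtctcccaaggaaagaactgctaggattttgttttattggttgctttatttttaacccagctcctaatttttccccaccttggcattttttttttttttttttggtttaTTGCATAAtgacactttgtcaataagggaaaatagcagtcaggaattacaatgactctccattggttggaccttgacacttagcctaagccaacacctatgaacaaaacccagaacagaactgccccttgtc
C8b: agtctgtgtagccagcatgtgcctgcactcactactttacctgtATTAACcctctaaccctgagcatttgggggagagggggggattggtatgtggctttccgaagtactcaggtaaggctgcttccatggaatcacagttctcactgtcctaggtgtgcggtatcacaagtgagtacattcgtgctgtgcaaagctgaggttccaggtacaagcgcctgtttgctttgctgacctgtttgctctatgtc

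Motifs of 7 factors or elements were searched on both strands, except that the TATA box was searched on the gene's strand alone. The element named TATA box was searched as TATAAA. For the hepatocyte factor HNF1 the letters were GTTAAT, which cover a part of its site. For C/EBP they were TTGCNNAA, for HNF4 they were CAAAGTCCA, and for STAT factors they were TTCNNNGAA. For NF-kB they were GGNNTTTCC. For SOX factors a fixed form of the core of the site, AACAAT, was used, and other forms were not searched. The capitals in C9 are a C/EBP match, at positions -132 to -125 from the start site. Those in C8b are an HNF1 match on the opposite strand, at positions -206 to -201, and no 2 matches overlapped. C/EBP matches were present before 2 of the 8 start sites, those of C9 and C3, against 9.56% of 32851 start sites of the genome. HNF1 matches were present before 3 of 8, those of Hc, C8a and C8b, against 6.43%. STAT letters matched before C8a, at positions -228 to -220, and the TATAAA letters before Hc, at positions -239 to -234. Each was found before 1 of 8 start sites, against 7.02% and 7.59%. Whether the letters before Hc act as a TATA box was not tested. The windows of Hc and C8a do not lie before the outermost end of the gene, as given above. The SOX, HNF4 and NF-kB letters as searched were in none of the 8 windows, against 9.42%, 0.384% and 4.93% of all windows. Sites with other letters were not counted. The C9 sequence holds TACAATG, which differs from the SOX letters searched in its first base, so a SOX site there is not excluded.

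The other soluble genes of the alternative and terminal pathway were also lower in mean signal. Of 11 listed, 6 were tested, and 0 passed limma after adjustment over all probe sets. All 6 had a log2 difference below 0 (median -0.32), against 52.6% of probe sets. Cfhr2, a relative of the regulator factor H, had 551 and 479 in Sox17+/- liver against 1176 and 530 in wildtype liver. Cpn2, a subunit of the carboxypeptidase that inactivates C3a and C5a, had 927 and 762 in Sox17+/- liver against 1625 and 920.5 in wildtype liver. For both genes the higher Sox17+/- array lay just above wildtype array 2. Cfp, encoding properdin, which stabilises the alternative convertase, was below without overlap, with 1035 and 1008 in Sox17+/- liver against 1095 and 1294 in wildtype liver. It was 1 of 6 in this group, near the 16.9% of all probe sets. Unlike the 8 genes above, Cfp was lower on wildtype array 1 than on wildtype array 2. Without wildtype array 1 the median of the 6 genes was -0.005.

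The membrane regulators and receptors went in both directions. Of 11 tested genes, 5 were higher and 2 lower without overlap, against 14.1% and 16.9% of all probe sets, and 0 passed limma after adjustment. C5ar1, the receptor of the C5 fragment C5a, had 201 and 164 in Sox17+/- liver against 106 and 103 in wildtype liver, a log2 difference of 0.72 (SE 0.21). C3ar1, the receptor of C3a, had 209 and 122 in Sox17+/- liver against 109 and 119 in wildtype liver. Both receptors were thus higher on both Sox17+/- arrays, C3ar1 by a small margin on array 2. Cd55, which speeds the decay of the convertases, had 1076 and 812 in Sox17+/- liver against 726 and 701.5 in wildtype liver. Vsig4, a receptor for C3 fragments on Kupffer cells, had 130 and 194 in Sox17+/- liver against 811 and 364 in wildtype liver, at 0.312-fold. Cd46, a cofactor of factor I, had 132 and 158 in Sox17+/- liver against 226 and 203 in wildtype liver. The other higher genes without overlap were Cd93, a receptor of endothelial and myeloid cells, at 1211 and 932 in Sox17+/- liver against 695 and 793 in wildtype liver, and the complement inhibitor gene Susd4, at 122 and 141 in Sox17+/- liver against 88.1 and 94.8 in wildtype liver. The median of this group was 0.21, and 0.38 without wildtype array 1.

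Among classical and lectin pathway genes, 16 were tested, 6 were lower and 0 higher without overlap, against 16.9% and 14.1% of probe sets, and 0 passed limma after adjustment. Their median log2 difference was -0.25, and 0.04 without wildtype array 1. Masp2, the protease of the lectin pathway, had 763 and 564 in Sox17+/- liver against 1221 and 941 in wildtype liver. Its log2 difference was close on both array numbers, at -0.67 and -0.72. Mbl1, a mannose-binding lectin, had 1281 and 1256 in Sox17+/- liver against 1841 and 1627 in wildtype liver, also below without overlap. C2, which takes the place of factor B in the classical convertase, had 996 and 914 in Sox17+/- liver against 1361 and 1019 in wildtype liver.

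**Figure D4:**
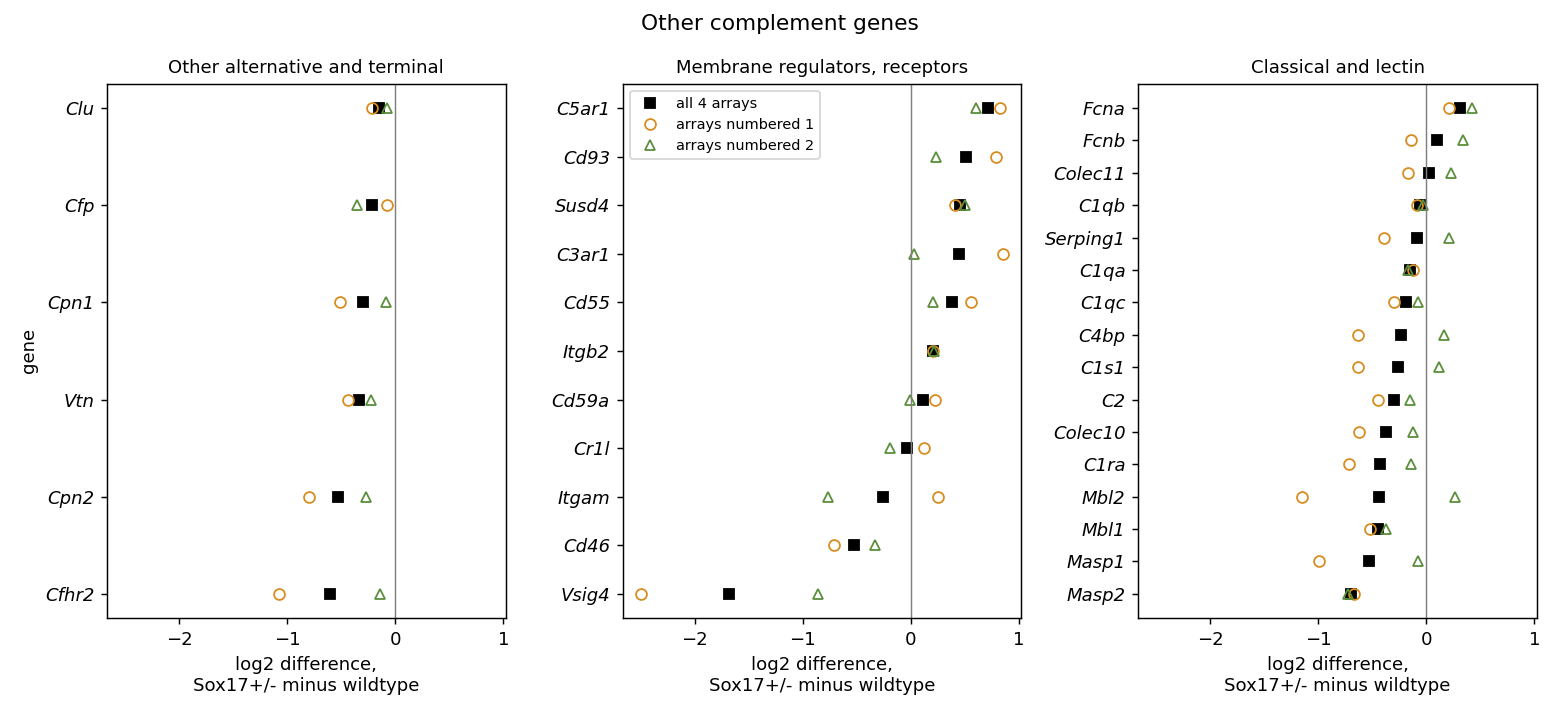
Log2 difference between Sox17+/- and wildtype liver (x axis, on log2(signal + 16)) for the 33 other complement genes tested (y axis, ordered by difference within a panel), with squares for all 4 arrays, open circles for the arrays numbered 1 and open triangles for those numbered 2. All 6 genes of the left panel lie below 0, while the middle panel runs from Vsig4 at -1.68 to C5ar1 at 0.72.

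Hepatocyte transcription factor genes and cytokine and NF-kB signalling genes went in both directions. Whether any of them acts on the complement genes here was not tested. Of 16 tested hepatocyte transcription factor genes, 3 were higher and 2 lower without overlap (median log2 difference 0.01), and of 15 tested cytokine and NF-kB signalling genes 5 were higher and 2 lower (median 0.14), against 14.1% higher and 16.9% lower among all probe sets. Cebpa, encoding C/EBP alpha, had 2361 and 1841 in Sox17+/- liver against 4127 and 2295 in wildtype liver. Cebpb, encoding the cytokine-responsive C/EBP beta, had 2770 and 1482 in Sox17+/- liver against 1288 and 1106 in wildtype liver. Thus Cebpb was higher on both Sox17+/- arrays, while Cebpa overlapped. The transcription factor gene Nr1h4 was below without overlap, with 236 and 189 in Sox17+/- liver against 530 and 270 in wildtype liver. Nr3c1, of the same list, was above without overlap, with 2005 and 1719 in Sox17+/- liver against 1534 and 1094 in wildtype liver. Among the signalling genes Jak1 had the smallest p, with 3733 and 3406 in Sox17+/- liver against 2266 and 2684 in wildtype liver. The NF-kB inhibitor gene Nfkbia had 8546 and 4080 in Sox17+/- liver against 4035 and 2635 in wildtype liver. Socs3, a feedback inhibitor of STAT3 signalling, had 909 and 684 in Sox17+/- liver against 450.5 and 643 in wildtype liver. The cytokine gene Il1b went the other way, with 137 and 86.3 in Sox17+/- liver against 160 and 176 in wildtype liver. None of these genes passed limma after adjustment over all probe sets. Of 21 acute phase genes, which hepatocytes express in inflammation, 17 were tested, with 1 higher and 0 lower without overlap, against 14.1% and 16.9% of probe sets, and a median of -0.25, or 0.27 without wildtype array 1. The 1 gene was Hamp, the hormone hepcidin, at 15330 and 1472 in Sox17+/- liver against 799 and 341 in wildtype liver.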

How the data were processed

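Total RNA of 4 fetal livers or liver pools was labelled with biotin and hybridised to single-colour Affymetrix arrays. The authors deposited 1 intensity (signal) per probe set, for which the submitters' processing notes name MAS5, and in the values the mean of each array after trimming 2% at either end was 500. Scaling to a common mean removes differences in total RNA, and dim MAS5 signals are noisy.

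Of 45101 probe sets, 64 controls were left out. Of the other 45037, 34945 had 1 symbol in the platform annotation, 932 several and 9160 none listed. Signals were taken as log2(signal + 16), a scale that makes folds of dim genes smaller. The brighter 50% by mean log2 value, 22519 probe sets, were tested with limma 3.58.1 in R 4.3.3 (genotype as the only term, 2 residual and 3.24 prior degrees of freedom, two-sided, Benjamini-Hochberg, threshold 0.05). All 8 measured members passed the filter. A gene was represented by its brightest probe set with 1 symbol. The number of arrays, 2 per genotype, limits the precision. Nothing in the labels says how separate the replicates were beyond their being biological. The p-values set each difference against the spread between these samples, combined in limma with a prior spread drawn from all tested probe sets.

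The members and lists were chosen with earlier results of these data known. All members are named. Any tested gene of the other complement lists may be named by value, as may Sox17, Alb and Afp and the 4 genes with the smallest p of each further list. Deviations from the genotype mean correlated between arrays of the same number at r = 0.383 over 22519 probe sets, and the labels give no meaning for the number. The code was tested on simulated data. The hepatocyte-relative scale was chosen after the data were seen. Sequences came from RefSeq (GRCm38.p6).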

Additional observations from a re-analysis of the deposited data

How the results depend on the processing

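No complement gene of the 8 passed limma under any alternative run, with adjusted p between 0.218 and 1. Over all probe sets, 5 passed with each array median-centred and 3 with a trended, robust prior, against 0 otherwise. With the array number as a replicate block, 0 probe sets and 0 of the 8 genes passed (smallest adjusted p among the 8 genes 0.514), 1693 probe sets had an unadjusted p under 0.05 against 923 without the block, and the block changed no call. The numbers were not taken to pair the samples, since the labels do not say what they mark. The number of members below without overlap was 4 to 8 when 1 array was left out, with 8 without Sox17+/- array 1 or wildtype array 2, against 31.3% and 33.2% of probe sets. It was 3 with median centring, 6 with quantile normalization and 3 of 7 among the brighter 25% of probe sets. The shares of all probe sets under these settings, and without Sox17+/- array 2, were not computed. These counts therefore cannot be read as stronger or weaker than the background. The median of the 8 genes ran from -0.79 to -0.15 with 1 array left out. That of the other complement genes was -0.22, ran from -0.48 to 0.0740 with 1 array left out, and turned to 0.0740 without wildtype array 1. C8g turned to 0.0475 without Sox17+/- array 2 and to 0.0555 without wildtype array 1 (range -0.41 to 0.0555), where Cfb turned to 0.11 (range -0.72 to 0.11) and Cfi to 0.0715 (range -0.60 to 0.0715). These were the 4 turns among 95 values of single members under the alternatives, all with 1 array left out, and the cause was not tested. The replicate block, the averaging of probe sets and the changes of filter left each member's difference as it was. Those values could not turn, so the 95 overstate how often a turn was possible. With 1 probe set each, the members' differences were the same when all probe sets of a gene were averaged. Dim signal limits C6 most.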
